A study of Sus scrofa with 4 samples.

Results

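The genes described here make, bind and break down hyaluronan in pig skin. They were HAS1, HAS2 and HAS3, which encode the hyaluronan synthases, UGDH, which supplies a building block, CD44, which encodes the main receptor, and HYAL1, HYAL2 and CEMIP, which act in breakdown. They were chosen by name for these roles, with earlier results of these data known. Of the 8, 8 were found among the 29837 named genes of the deposited counts. HAS2 is listed under the pig symbol SHAS2, of which the RefSeq gene table of Sscrofa11.1 gives Has2 as a synonym. RNA was sequenced from epidermal cells of 2 juvenile pigs, 88R and 95R, sorted by GFP into an LGR5-high and an LGR5-negative population, with 1 library for each population and pig. Both populations came from the same animals, in which H2B-GFP had been inserted by CRISPR/Cas9 into the first exon of an LGR5 allele while the other allele was left unedited. The pigs were made by somatic cell nuclear transfer from clonal edited cells or were progeny of such animals, and which of these 88R and 95R were is not stated. Epidermis and hair had been freed from the dermis with dispase and brought into suspension with trypsin, and live cells were sorted. A GFP-low fraction is not among these libraries. H2B-GFP stays on the chromatin and is diluted as cells divide, so a cell may keep some label after LGR5 is switched off.

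Hyaluronan is a long, unsulfated sugar chain of glucuronic acid and N-acetylglucosamine. The synthases sit in the plasma membrane, take UDP-glucuronic acid and UDP-N-acetylglucosamine from the cytosol and push the growing chain out of the cell, where CD44 and matrix proteins bind it. HYAL2 is anchored at the cell surface and cuts long chains, HYAL1 is the lysosomal hyaluronidase, and CEMIP binds hyaluronan and promotes its breakdown by a separate route. Most hyaluronan of the skin lies in the dermis, but keratinocytes also make it, and it surrounds the cells of the basal and spinous layers of the epidermis.

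The libraries held between 30696803 and 32463362 counts on named genes. LGR5 had 4551 and 6224 counts in LGR5-high cells of pigs 88R and 95R, against 36 and 109 in the LGR5-negative ones, and this is the gene whose reporter defined the sort. All 7 hair follicle stem cell markers listed were higher in LGR5-high, and 6 of 8 tested markers of differentiated epidermis and 3 of 5 of basal epidermis were lower, at an adjusted p-value under 0.05. These and the marker counts below stand beside 22.7% higher and 22.0% lower among all 15980 tested genes. Markers of other cells also differed between the populations. Of 8 tested leukocyte markers 7 were lower and 1 was higher in LGR5-high, and all 9 listed together reached between 16.7 and 18.0 CPM, a count scaled for sequencing depth, in LGR5-high and between 109 and 159 CPM in LGR5-negative. Melanocyte markers summed to between 63.5 and 63.9 CPM in LGR5-high and to between 84.4 and 258 CPM in LGR5-negative, with 4 of 7 lower, and endothelial markers to between 7.42 and 9.90 CPM and between 22.1 and 22.5 CPM, with 5 of 7 lower. Smooth muscle markers summed to between 14.0 and 14.4 CPM in LGR5-high and to between 3.90 and 4.67 CPM in LGR5-negative, with all 3 tested higher. Fibroblast markers went both ways, with 4 of 10 higher and 5 lower. The 4 Schwann cell markers did so too, with 1 of 3 tested higher and 1 lower, and summed to between 52.7 and 66.1 CPM in LGR5-high and to between 4.84 and 8.67 CPM in LGR5-negative. Of this LGR5-high sum NGFR gave 51.1 and 65.1 CPM, while SOX10 stood at 0.553 and 0.696 CPM in LGR5-high and at 2.32 and 5.76 CPM in LGR5-negative. None of these markers was at 0 in all 4 libraries. The part of other cell types in the results below was not tested unless a value is given.

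Between the populations, 3 of the 8 hyaluronan genes were higher in LGR5-high (HAS1, HAS2 and HYAL1) and 4 were lower (HAS3, UGDH, CD44 and CEMIP), where the edgeR quasi-likelihood test gave an adjusted p-value under 0.05. HYAL2 was not called. Over all 15980 genes tested, 22.7% were called higher and 22.0% lower. The CPM ranges of the populations did not overlap for the same 3 and 4 genes, while 39.2% of all tested genes lay wholly higher and 37.4% wholly lower. Fitting the pig as a replicate block, the same 3 and 4 genes were called, beside 28.5% and 27.2% of all genes. A test of each gene alone on log2(CPM + 1), with no spread shared between genes, called 0 of the 8. Of all 15980 genes it called 544 higher and 502 lower. In it 4 of the 8 (HAS1, HAS3, CD44 and HYAL1) had an unadjusted p-value under 0.05, as had 6391 of the 15980 genes. All 8 passed the filter on low counts, but HAS2 passed it only through its LGR5-high libraries, so that its difference was favoured by the filter. CPM values below are scaled by library size and the trimmed mean of M-values (TMM) and not by gene length, so they compare 1 gene between libraries and not genes with each other. In these bulk libraries, more cells that use a gene and more RNA of it per cell cannot be told apart.

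**Figure D1:**
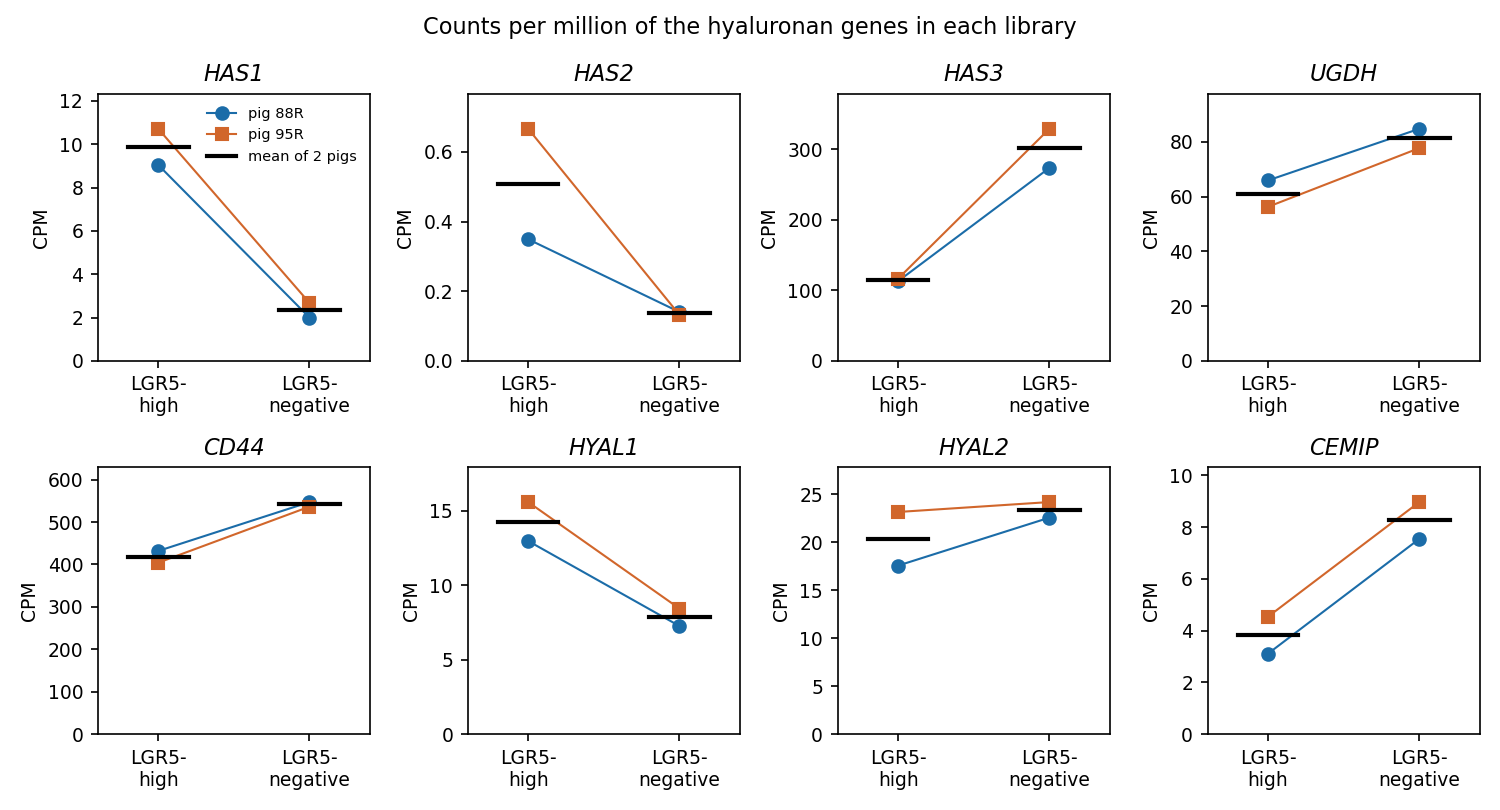
Level of each hyaluronan gene (CPM, axis from 0, a scale of its own for each gene) in the LGR5-high and LGR5-negative libraries, with a line joining the libraries of a pig and a bar at the mean of the 2 pigs. HAS1 falls from 9.88 to 2.34 CPM and HAS3 rises from 115 to 301 CPM from LGR5-high to LGR5-negative, and for HYAL2 alone the values of the populations overlap.

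The synthase genes moved in opposite directions. HAS3, the synthase gene with nearly all of the synthase counts, had 113 and 117 CPM in LGR5-high cells of pigs 88R and 95R and 273 and 329 CPM in the LGR5-negative libraries. Both LGR5-negative values were more than 100 CPM above the LGR5-high ones. The mean level was 115 ± 2.54 CPM for LGR5-high and 301 ± 39.2 CPM for LGR5-negative (SD, n = 2 pigs), which is 2.62-fold higher in LGR5-negative. The log2 fold change of HAS3, LGR5-high against LGR5-negative, was -1.39 (standard error 0.110, adjusted p = 3.95e-04 by the edgeR quasi-likelihood test), and it was -1.27 within pig 88R and -1.50 within pig 95R. By the size of its decrease HAS3 stood at rank 1084 of the 15980 tested genes.

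HAS1 had 311 and 354 counts in LGR5-high and 57 and 81 counts in LGR5-negative. In CPM it stood at 9.05 and 10.7 in LGR5-high and at 2.0 and 2.68 in LGR5-negative, so that the populations were well apart in both animals. Its mean was 9.88 ± 1.18 CPM for LGR5-high and 2.34 ± 0.481 CPM for LGR5-negative (SD, n = 2 pigs), a 4.22-fold difference. The fit put HAS1 at a log2 fold change of 2.07 (standard error 0.232, adjusted p = 0.00127 by the edgeR quasi-likelihood test), and the pigs gave 2.14 (88R) and 1.97 (95R). With any 1 library left out the log2 fold change stayed between 1.87 and 2.29 for HAS1 and between -1.52 and -1.26 for HAS3, with both genes called each time.

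HAS2 was close to the limit of what these libraries could measure, with 12 and 22 counts in LGR5-high and 4 in each LGR5-negative library. These counts correspond to 0.349 and 0.666 CPM in LGR5-high and to 0.140 and 0.132 CPM in LGR5-negative, where 3 counts, taken as the floor, amount to between 0.0873 and 0.105 CPM. The ratio of the summed counts was 3.70, with an exact 95% interval of 1.68 to 9.26 that covers counting error only. The log2 fold change of HAS2 was 1.86 (standard error 0.579, adjusted p = 0.0444 by the edgeR quasi-likelihood test), and it was 1.02 within pig 88R and 1.90 within pig 95R. The call did not hold with DESeq2 (adjusted p = 0.199) or limma-voom (adjusted p = 0.0592), nor without any 1 of the 4 libraries, where the log2 fold change lay between 1.34 and 2.25. A long non-coding gene that overlaps HAS2 in the RefSeq table, LOC106509979, had 10 and 8 counts in LGR5-high and 7 and 5 in LGR5-negative, and the strand setting of the counting is not stated.

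The synthase transcripts therefore differed in make-up as well as in amount. HAS1 gave 7.39% and 8.37% of the summed counts of HAS1, HAS2 and HAS3 in LGR5-high cells of pigs 88R and 95R, and 0.726% and 0.808% in the LGR5-negative libraries. HAS3 gave 92.3% and 91.1% in LGR5-high and 99.2% in each LGR5-negative library. These are shares of counts and not of molecules, since the genes were not corrected for length. The summed CPM of the 3 genes was 125 ± 3.94 in LGR5-high and 304 ± 39.6 in LGR5-negative (SD, n = 2 pigs), 2.42-fold higher in LGR5-negative. How reads shared by similar stretches of the synthase genes were counted is not stated. HAS3 overlaps TANGO6 in the RefSeq table, and TANGO6 had between 160 and 272 counts per library with a log2 fold change of 0.23, opposite in sign to that of HAS3 and not called.

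UGDH, which oxidises UDP-glucose to UDP-glucuronic acid, was lower in LGR5-high by a small amount. It had 65.9 and 56.3 CPM in LGR5-high and 84.7 and 77.7 CPM in LGR5-negative, in the order of pigs 88R and 95R. Each LGR5-negative library was above both LGR5-high libraries. The fit put UGDH at a log2 fold change of -0.41 (standard error 0.108, adjusted p = 0.0264 by the edgeR quasi-likelihood test), that is 1.33-fold higher in LGR5-negative, and it was -0.36 within pig 88R and -0.47 within pig 95R. UGDH was not called with library size only (log2 fold change -0.19) or with upper quartile scaling (-0.32), nor without the LGR5-negative library of pig 88R (-0.35) or the LGR5-high library of pig 95R (-0.30).

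The other enzymes that lead to the UDP-sugars went in different directions. Of 10 listed, all tested, 1 was higher and 3 were lower in LGR5-high, beside 22.7% and 22.0% of all tested genes. Their median log2 fold change was 0.08, beside 0.02 for all tested genes. The enzymes at the start of the route, the hexokinases, moved apart. HK2 had 163 and 137 CPM in LGR5-high against 28.5 and 34.1 CPM in LGR5-negative, with a log2 fold change of 2.26 (standard error 0.135). HK1 had 136 and 129 CPM against 210 and 216 CPM, with a log2 fold change of -0.69 (standard error 0.0771). UAP1, which makes UDP-N-acetylglucosamine, and PGM1, a phosphoglucomutase on the way to UDP-glucose, were lower in LGR5-high, with log2 fold changes of -0.61 and -0.55. UGP2, which makes the UDP-glucose that UGDH uses, had a log2 fold change of 0.03, and GFPT1, the entry enzyme of the hexosamine route, one of 0.28, and neither was called. GPI, which interconverts glucose and fructose phosphates, had a log2 fold change of 0.22 that was called with the replicate block but not without it (adjusted p = 0.0419 and 0.0656 by the edgeR quasi-likelihood test).

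CD44 was lower in LGR5-high, by the smallest of the called changes among the 8 hyaluronan genes. Its counts were 14847 and 13354 in LGR5-high against 15592 and 16206 in LGR5-negative. In CPM these were 432 and 404 against 547 and 536, so that both LGR5-high values lay below both LGR5-negative values. The means were 418 ± 19.6 CPM and 542 ± 7.68 CPM (SD, n = 2 pigs), 1.30-fold higher in LGR5-negative. The fit put CD44 at a log2 fold change of -0.37 (standard error 0.0806, adjusted p = 0.0134 by the edgeR quasi-likelihood test), and it was -0.34 within pig 88R and -0.41 within pig 95R. CD44 was not called with library size only (log2 fold change -0.15), nor without the LGR5-high library of pig 95R (-0.32). Leukocytes also carry CD44, and PTPRC, which encodes the pan-leukocyte antigen CD45, had 7 and 4 counts in LGR5-high and 55 and 86 in LGR5-negative. Of the 8 tested leukocyte markers 7 were lower in LGR5-high, while AIF1 was higher, with 215 and 273 counts against 42 and 54. The part of leukocytes in the difference of CD44 was not tested. Counts were summed over the gene, so its splice forms were not resolved.

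Among 9 genes that encode partners of CD44, LGR5-high had 2 higher and 3 lower, beside 22.7% and 22.0% of all tested genes. Their median log2 fold change was -0.13. With library size only 4 were higher and 0 lower (median 0.09), beside 5473 and 2326 of all 15980 tested genes. EZR and RDX encode ezrin and radixin, related proteins that tie the tail of CD44 to actin, and they moved apart. The log2 fold change of EZR was -0.51 (standard error 0.142) and that of RDX 0.46 (standard error 0.13), and MSN, which encodes moesin of the same family, had -0.13 and was not called. NF2, which encodes merlin, and ESRP2, an epithelial splicing factor that acts on CD44 transcripts, were lower in LGR5-high, with log2 fold changes of -0.32 and -0.35. ADAM10, a protease that sheds CD44, was higher, with 0.51. With library size only the negative log2 fold changes of this list were no longer called.

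Of the 5 other receptor genes listed, LYVE1, LAYN and STAB2 had between 0 and 19 counts in any library and were not tested. STAB1, a scavenger receptor of macrophages and endothelium, had 18.2 and 13.0 CPM in LGR5-high against 39.3 and 27.5 CPM in LGR5-negative. The fit put STAB1 at a log2 fold change of -1.10 (standard error 0.234, adjusted p = 0.0129 by the edgeR quasi-likelihood test). Of the markers given above, 5 of 7 endothelial and 7 of 8 tested leukocyte markers were lower in LGR5-high. The leukocyte marker AIF1 was higher, with 215 and 273 counts in LGR5-high against 42 and 54 in LGR5-negative. The part of these cells in the difference of STAB1 was not tested. HMMR, a hyaluronan-binding protein of the mitotic spindle, had 646 and 485 counts in LGR5-high and 363 and 201 in LGR5-negative, with a log2 fold change of 0.79. It was called higher with the replicate block (adjusted p = 2.41e-04 by the edgeR quasi-likelihood test, against 0.0917 without it) and also with library size only.

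The breakdown genes also split by direction. HYAL1 had 446 and 515 counts in LGR5-high and 207 and 255 in LGR5-negative. Its CPM was 13.0 and 15.6 in LGR5-high and 7.26 and 8.44 in LGR5-negative, a 1.82-fold difference between the means of 14.3 ± 1.85 and 7.85 ± 0.830 (SD, n = 2 pigs). The log2 fold change of HYAL1 was 0.86 (standard error 0.170, adjusted p = 0.00978 by the edgeR quasi-likelihood test), and it was 0.83 within pig 88R and 0.88 within pig 95R. The changes in the 2 pigs were thus nearly equal, but HYAL1 was not called without the LGR5-high library of pig 95R (log2 fold change 0.73, adjusted p = 0.0641 by the edgeR quasi-likelihood test).

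CEMIP changed the other way. It had 107 and 150 counts in LGR5-high and 215 and 271 in LGR5-negative, which is 3.11 and 4.54 CPM against 7.54 and 8.97 CPM. The lowest LGR5-negative value was above the highest LGR5-high value. CEMIP was 2.16-fold higher in LGR5-negative, with a log2 fold change of -1.11 (standard error 0.249, adjusted p = 0.0153 by the edgeR quasi-likelihood test) that was -1.26 within pig 88R and -0.97 within pig 95R. Without the LGR5-high library of pig 88R the log2 fold change was -0.87 and CEMIP was not called. CEMIP is also active in dermal fibroblasts, and of the fibroblast markers LUM had 5 and 0 counts in LGR5-high and 47 and 31 in LGR5-negative, while FBLN1 had 755 and 759 against 219 and 204. The part of fibroblasts in the difference of CEMIP was not tested.

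HYAL2 had 604 and 765 counts in LGR5-high and 643 and 731 in LGR5-negative, or 17.6 and 23.2 CPM against 22.6 and 24.2 CPM. Pig 95R was above pig 88R in each population, and the populations overlapped. The log2 fold change was -0.20 with TMM and 0.02 with library size only, and HYAL2 was not called in either (adjusted p = 0.355 by the edgeR quasi-likelihood test with TMM). Its 95% interval ran from -0.60 to 0.20 on the log2 scale, so a change of HYAL2 as large as that of HYAL1 or CEMIP lay outside it. HYAL2 overlaps TUSC2 in the RefSeq table, which had between 531 and 667 counts per library and a log2 fold change of -0.01.

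**Figure D2:**
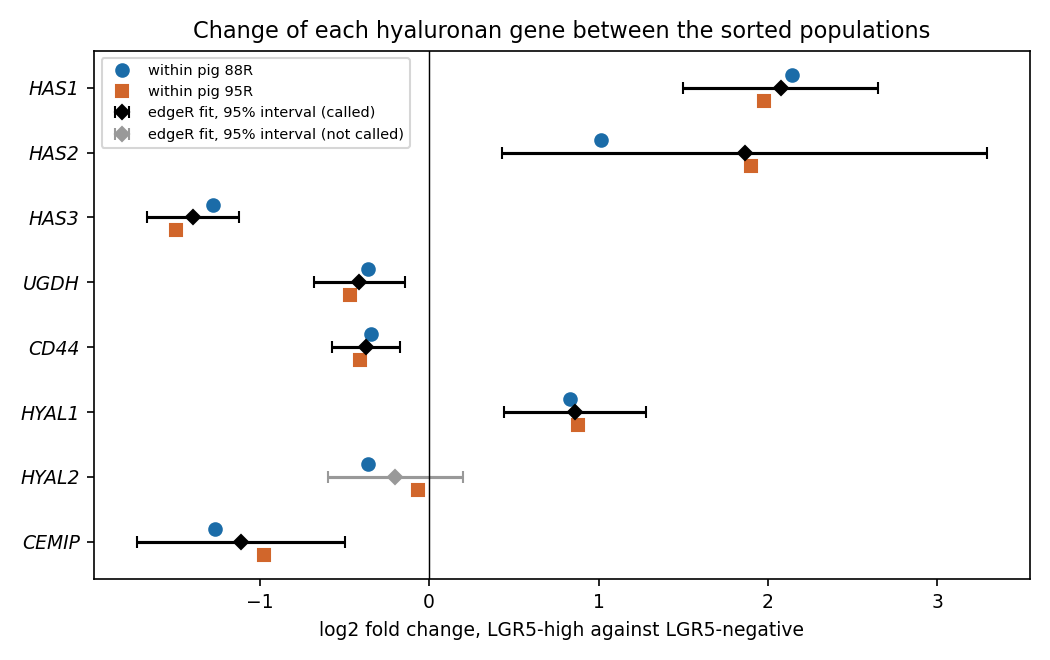
Log2 fold change of each hyaluronan gene, LGR5-high against LGR5-negative, from the edgeR fit (diamonds with 95% intervals, grey where not called) and within each pig (circles and squares, computed with a prior count of 2). HAS1, HAS2 and HYAL1 lie to the right of 0 and HAS3, CEMIP, UGDH and CD44 to the left, and the interval of HYAL2 spans 0.

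Ordered by log2 fold change, the genes ran from HAS1 (2.07) and HAS2 (1.86) through HYAL1 (0.86), HYAL2 (-0.20), CD44 (-0.37) and UGDH (-0.41) to CEMIP (-1.11) and HAS3 (-1.39). Neighbours in this order had overlapping 95% intervals, apart from HYAL1 and HYAL2. The interval of HAS1 (1.50 to 2.65) lay above that of HYAL1 (0.44 to 1.28), and that of HAS3 (-1.66 to -1.12) lay below those of CD44 (-0.57 to -0.17) and UGDH (-0.68 to -0.14). The scaling between libraries moved all genes together, since the median of all tested genes was 0.02 with TMM, 0.11 with upper quartile scaling and 0.24 with library size only. Measured from that median, HAS1 stood at 2.06 and HAS3 at -1.41 under each of these scalings, CD44 at -0.39 and UGDH at between -0.43 and -0.42. Library size only also turned the 3632 higher and 3508 lower genes of the TMM fit into 5473 higher and 2326 lower ones.

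Ratios of raw counts within a library do not depend on the scaling between libraries. For every 100 counts of HAS3, HAS1 had 8.01 and 9.19 counts in LGR5-high cells of pigs 88R and 95R and 0.732 and 0.815 in the LGR5-negative libraries. The ratio was 10.9-fold higher in LGR5-high within pig 88R and 11.3-fold within pig 95R. For every 100 counts of HYAL2, HYAL1 had 73.8 and 67.3 counts in LGR5-high and 32.2 and 34.9 in LGR5-negative. The change in balance was larger between CEMIP and HYAL1, with 24.0 and 29.1 counts of CEMIP per 100 of HYAL1 in LGR5-high and 104 and 106 in LGR5-negative. HAS3 had 171 and 207 counts per 100 of UGDH in LGR5-high and 323 and 423 in LGR5-negative, so the synthase gene and the gene of its substrate enzyme did not keep a fixed proportion. None of these 4 ratios overlapped between the populations. For HAS1 to HAS3 and CEMIP to HYAL1 this was fixed beforehand, since the genes of each pair lay wholly apart in opposite directions. Of all tested genes taken singly, 39.2% lay wholly higher and 37.4% wholly lower in LGR5-high. The share over all pairs of genes was not computed. With 2 libraries a population, the smallest 2-sided p that an exact permutation test of a ratio could give is 0.333, and none was run.

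**Figure D3:**
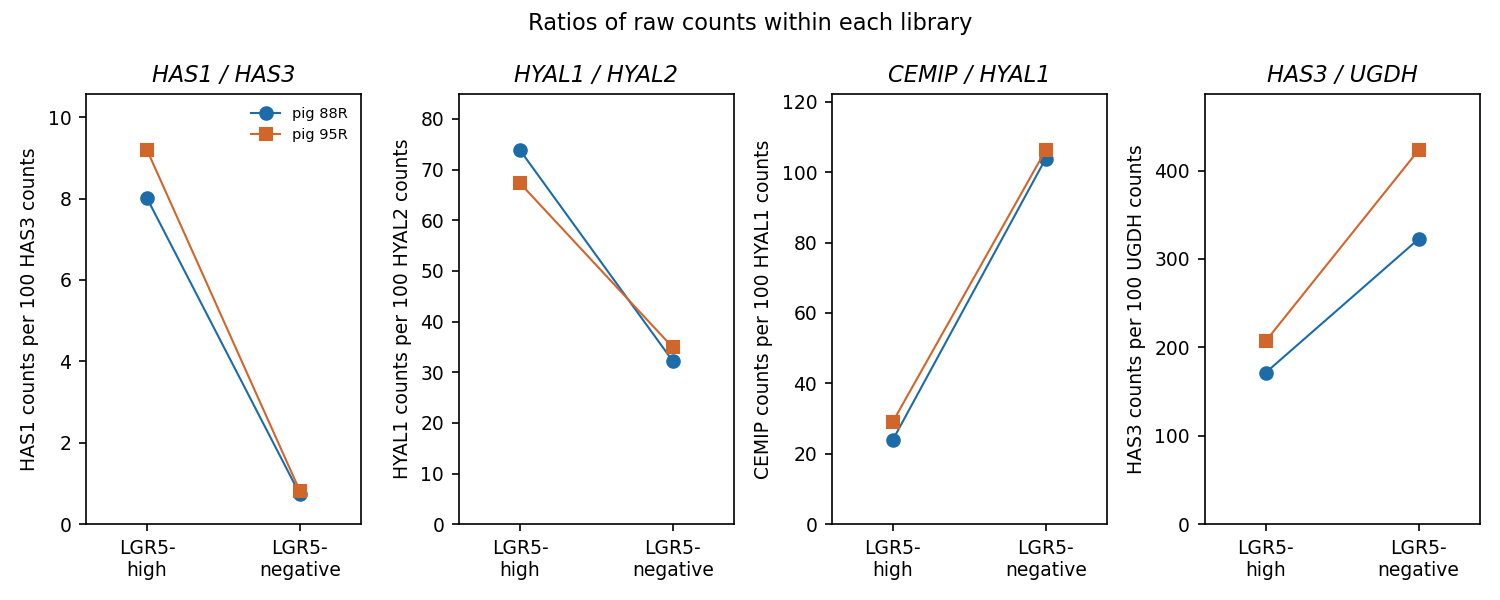
Raw counts of a hyaluronan gene per 100 counts of another in the same library (axis from 0), for LGR5-high and LGR5-negative, with a line joining the libraries of a pig. The HAS1 to HAS3 ratio is 8.01 and 9.19 in LGR5-high and below 1 in LGR5-negative, and the CEMIP to HYAL1 ratio goes from 24.0 and 29.1 up to 104 and 106.

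Of the 7 remaining breakdown genes listed, 6 were tested, since SPAM1, the sperm hyaluronidase gene, had 0 counts in all 4 libraries. The median log2 fold change of the 6 was 0.34, with 1 higher and 1 lower in LGR5-high, beside 22.7% and 22.0% of all tested genes. HEXA, which encodes a lysosomal exoglycosidase, had a log2 fold change of 0.32 and was not called. HYAL4, a hyaluronidase relative that acts mainly on chondroitin sulfate, had 28 and 21 counts in LGR5-high and 38 and 55 in LGR5-negative and was called lower with a log2 fold change of -1.12 and an adjusted p of 0.0470 by the edgeR quasi-likelihood test, but not with library size only or when all genes with at least 1 count were tested. CEMIP2, which is listed as TMEM2 and encodes a cell-surface relative of CEMIP, had a log2 fold change of 0.37 and was not called, so it did not follow CEMIP. With the replicate block HYAL3, CEMIP2 and HEXA were called higher as well, with adjusted p-values of 0.0217, 0.0172 and 0.0186 by the edgeR quasi-likelihood test. This made 4 higher genes of the 6, beside 28.5% of all tested genes. HYAL3, HYAL1 and HYAL2 follow each other in the gene order of the RefSeq table, with NAT6 between HYAL3 and HYAL1. NAT6 overlaps HYAL3 and had a log2 fold change of 0.95, so reads of this pair may not be separable.

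The list of hyaluronan-binding matrix proteins had the largest median change of the 5 related lists, which were chosen with earlier results of these data known. The matrix protein list also held other binding proteins, such as HABP4 (log2 fold change 0.17, not called). Of 16 listed, 9 had enough counts to be tested. Of these 7 were higher and 1 was lower in LGR5-high, beside 22.7% and 22.0% of all tested genes. Their median log2 fold change was 2.22, beside 0.02 for all tested genes. The other 7 genes had at most 8 counts in any library. A gene could pass the filter through its LGR5-high libraries alone, and with at least 10 counts required in every library 4 were higher and 1 was lower, with a median of 1.42. ACAN, the cartilage proteoglycan aggrecan, had 85 and 76 counts in LGR5-high and 1 and 3 in LGR5-negative, a ratio of 35.1 with an exact 95% interval of 13.4 to 130 for counting error. ITIH3, a heavy chain that is transferred onto hyaluronan, had 1277 and 1484 counts in LGR5-high and 59 and 120 in LGR5-negative, with a log2 fold change of 3.76 (standard error 0.302, adjusted p = 4.15e-04 by the edgeR quasi-likelihood test). Neither gene had overlapping populations, while 39.2% of all tested genes lay wholly higher in LGR5-high. ACAN passed the filter through its LGR5-high libraries alone. In the same libraries the 10 fibroblast markers summed to between 1256 and 1501 CPM in LGR5-high. In LGR5-negative they summed to between 377 and 684 CPM. Of the LGR5-high sum COL1A2 gave 497 and 561 CPM, THY1 504 and 466 CPM, and COL1A1 142 and 331 CPM. By log2 fold change, 5 of these markers had a lower call, from -4.10 (LUM) to -0.82 (DCN). The call was higher for 4, from 1.33 (THY1) to 3.70 (COL1A2). The part of fibroblasts in the changes of the matrix proteins was not tested.

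The link proteins, which fasten proteoglycans to hyaluronan, were higher in LGR5-high for 3 of the 4 family members, and HAPLN2 had at most 3 counts. HAPLN1 and HAPLN4 had under 10 counts in an LGR5-negative library, so that HAPLN3 alone of the family was tested where every library needed 10. HAPLN3 had 314 and 208 counts in LGR5-high and 35 and 29 in LGR5-negative (log2 fold change 2.82). HAPLN4 had 78 and 77 against 8 and 21 (2.22), and HAPLN1 had 30 and 52 against 4 and 2, a count ratio of 11.9 with an exact 95% interval of 5.24 to 33.4. VCAN, which encodes versican, had 322 and 181 counts against 90 and 108. The pigs differed for VCAN, with a log2 fold change of 1.55 in pig 88R and 0.61 in pig 95R and of 1.14 in the fit. PTX3, a pentraxin that stabilises hyaluronan-rich matrix, had a log2 fold change of 1.63. ITIH5 went against the group, with 19 and 12 counts in LGR5-high and 35 and 31 in LGR5-negative and a log2 fold change of -1.29 that was called with TMM but not with library size only, nor when all genes with at least 1 count were tested.

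**Figure D4:**
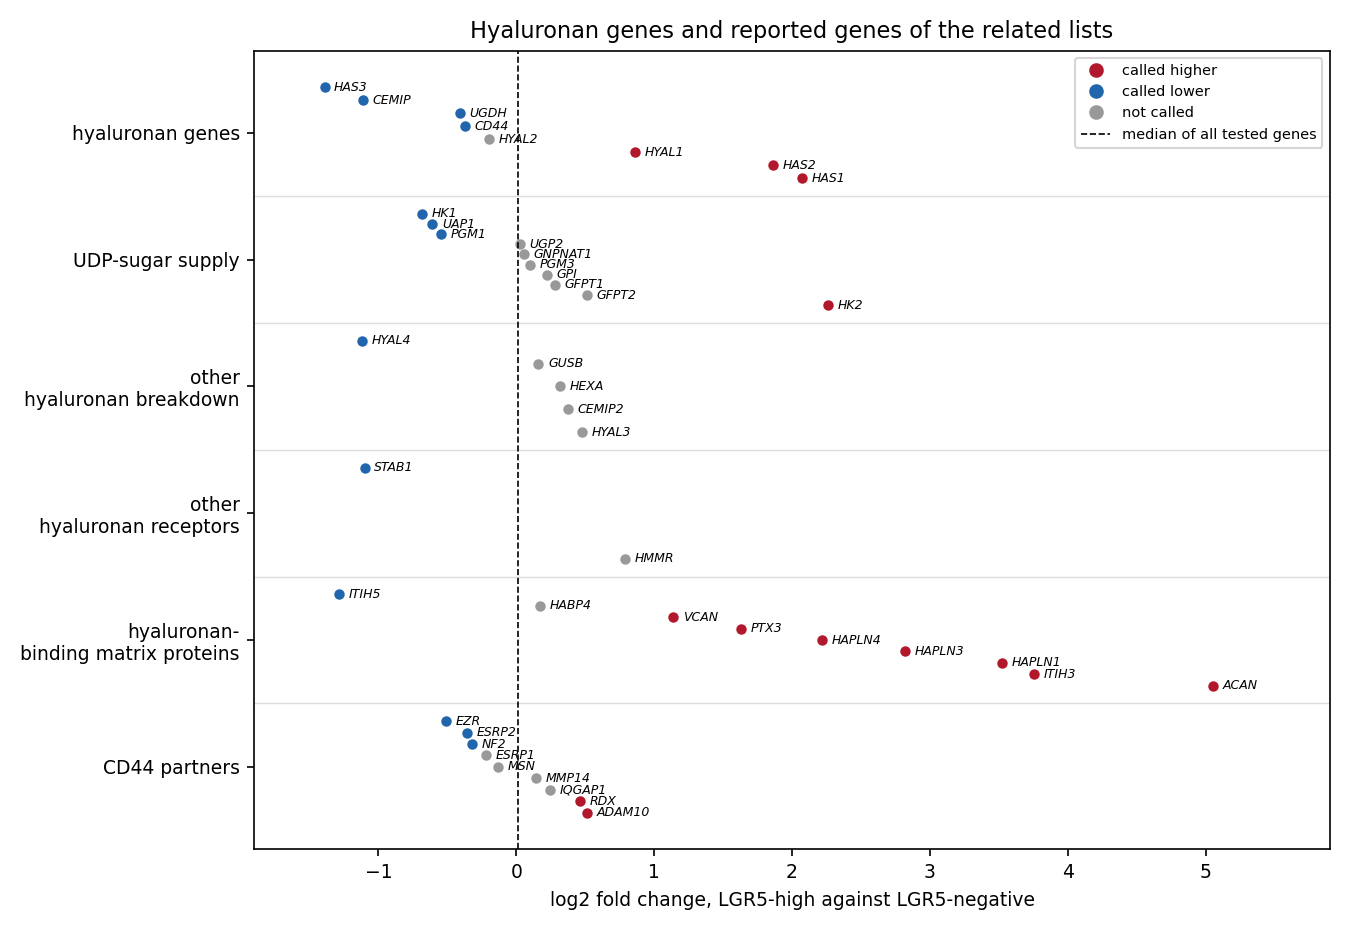
Log2 fold change, LGR5-high against LGR5-negative, of each tested hyaluronan gene and of the tested genes of the related lists that are reported here, coloured by the call at an adjusted p-value under 0.05, with a dashed line at the median of all tested genes (0.02). In the hyaluronan-binding matrix proteins 7 of 9 genes are called higher, beside 22.7% of all tested genes. A gene could pass the filter through its LGR5-high libraries alone, and 4 are called higher where every library needed at least 10 counts. The plotted genes of the other lists scatter to both sides of the line.

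The genes whose levels followed each hyaluronan gene most closely were found by the distance between log2 CPM values over the 4 libraries, each centred on its own mean, among 13478 candidates. Nearest to HAS1 were CRYAB (distance 0.0680) and ECI2 (0.0927), to HAS2 NT5E (0.0986) and C1S (0.112), and to HAS3 MALL (0.0622) and AHR (0.0625). Nearest to CD44 were APH1A (0.00808) and FMR1 (0.0134), and to UGDH PTAFR (0.00892) and DESI2 (0.0277). For the breakdown genes they were SUGP2 (0.0476) and EID1 (0.0634) for HYAL1, EIF4E1B (0.0310) and MARS2 (0.0405) for HYAL2, and PRKAG3 (0.0973) and CARD6 (0.105) for CEMIP. With 4 libraries and so many candidates a close match is easily found, and these distances only describe the libraries.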

How the data were processed

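The 4 libraries held RNA of sorted LGR5-high and LGR5-negative epidermal cells, 1 of each from 2 pigs. The submitters' processing notes name Trimmomatic 0.36, STAR 2.5.2b and featureCounts of Subread 1.5.2, and the study's methods give poly(A) selection and paired-end reads. The genome build, annotation and strand setting are not given in the sources used here. Raw counts were deposited by gene symbol, and 1 entry without a name, between 0.360% and 0.626% of a library, was left out. All 29837 symbols matched the RefSeq table of Sscrofa11.1, used only for names, synonyms and gene order. CEMIP2 was read from its older symbol TMEM2, and FLG and KRT14 of the marker lists were not analysed here.

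Genes were filtered in edgeR 4.0.16 (R 4.3.3) by filterByExpr (minimum count 10, minimum total 15), scaled by TMM and compared by a 2-sided quasi-likelihood test, in which population was the sole factor, with Benjamini-Hochberg adjustment over all tested genes. Standard errors are the log2 fold change divided by the square root of the F statistic. Fold changes within a pig used a prior count of 2, and fitted ones edgeR's default. The exact intervals of count ratios and the floor of 3 counts cover counting error only. Libraries of a population were not copies of each other (chi-square over its degrees of freedom 21.7 in LGR5-high, 23.7 in LGR5-negative). Same-numbered libraries came from the same pig, and they deviated from their populations' means together (correlation 0.370 over the tested genes), so the pig was also fitted as a replicate block. DESeq2 1.42.0, limma-voom (limma 3.58.1), Student's test, which the study's methods name, on log2(CPM + 1), a scale chosen here, other scalings, other filters and leaving out each library were alternatives. Scripts were tested on simulated data, and plots were drawn with matplotlib 3.10.9. Genes were named by rule: the hyaluronan genes, LGR5, the genes of the lists, and the 2 nearest to each hyaluronan gene. The hyaluronan genes and the lists were chosen with earlier results of these data known. A gene of the lists is counted in them but not reported here.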

Additional observations from a re-analysis of the deposited data

How the results depend on the processing

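HAS1 and HAS3 kept their direction under all 11 alternatives and with each library left out, and lost their calls only with the Student's t-test that the study's methods name, run on log2(CPM + 1). HAS2 is limited by depth, with at most 22 counts, and had too few to be tested where every library needed 10. The replicate block gave log2 fold changes of 2.08 for HAS1, -1.39 for HAS3, 0.86 for HYAL1 and -1.12 for CEMIP, and changed no call of the 8 genes. Over all genes it called 4562 higher and 4342 lower, and over the related lists it made 2 higher in the UDP-sugar supply, 4 higher in the other breakdown genes and 1 higher in the other receptors. Where no cause is given below, the cause was not tested.

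Student's t-test called 544 genes higher and 502 lower, and 0 and 0 of the hyaluronan genes, with 6391 of all genes and 4 of the hyaluronan genes at an unadjusted p-value under 0.05. The edgeR quasi-likelihood test called 3 and 4 of them. The log2 differences of the t-test were 1.71 for HAS1, 0.40 for HAS2, -1.38 for HAS3, -0.37 for CD44, 0.79 for HYAL1, -0.95 for CEMIP and -0.41 for UGDH, none of them called, with adjusted p-values between 0.0632 and 0.212. The pseudocount of 1 lowers the change of HAS2, whose CPM was under 1.

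Library size only called 5473 genes higher and 2326 lower, so that 70.2% of the calls were higher in place of 50.9%. It left 2 hyaluronan genes called lower (HAS3 and CEMIP), since CD44 (-0.15) and UGDH (-0.19) lost their calls, and turned HYAL2 to 0.023. The related lists moved with the median of all genes (0.24): the UDP-sugar supply had 3 higher and a median of 0.30, the other breakdown genes 4 higher, 0 lower and 0.57, the other receptors 1 higher and 0.071, the CD44 partners 4 higher, 0 lower and 0.090, and the matrix proteins 0 lower. Upper quartile scaling gave -0.32 for UGDH, not called.

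HAS2 was not called with all genes with at least 1 count (1.85), DESeq2 (1.89), DESeq2 with the replicate block (1.82) and limma-voom (1.69). All genes with at least 1 count left 0 lower in the other breakdown genes and 0 in the matrix proteins, with medians of 1.64 for the matrix proteins and -0.49 for the other receptors, where more low genes entered. At least 10 counts in every library gave 2 higher in the UDP-sugar supply, 2 in the other breakdown genes and 4 in the matrix proteins (median 1.42), where fewer genes entered.

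With each library left out in turn, a lone library being assumed to vary like the others, between 2279 and 3169 genes were higher and between 2139 and 3004 lower, and 1 to 2 hyaluronan genes were higher and 2 to 4 lower. The fewest calls came without the LGR5-high library of pig 95R (2279 and 2139 genes, 1 and 2 hyaluronan genes), followed by the LGR5-high library of pig 88R (2340 higher). The log2 fold changes lay between 1.34 and 2.25 for HAS2, -0.43 and -0.32 for CD44, 0.73 and 0.98 for HYAL1, -1.40 and -0.87 for CEMIP, and -0.54 and -0.30 for UGDH.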
